A study of Mus musculus with 2 samples.

Results

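The genes described here encode the Polycomb proteins, the DNA methyltransferases, the histone deacetylases and the sirtuins, which silence or fine-tune genes through chromatin. The 38 listed genes were chosen by name, not by a cutoff on their values, though with earlier results of these data known. Of these, 36 were measured, among 24171 genes in all, and Asxl1 and Hdac3 were not analysed here. Expression was measured in LT-HSC (sorted long-term blood stem cells, which sustain blood formation over a lifetime) of C57/BL6 mice, with 1 NimbleGen array for WASH knockout mice and 1 array for wild type control mice. WASH activates actin nucleation on endosomes. The age of the mice, the number of animals behind each RNA and the cells in which WASH was deleted are not given in the sources used here. With 1 array per genotype there was no replicate check, and no test or p-value was possible.

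Polycomb repressive complex PRC2 writes a methyl mark on histone H3, and PRC1, which can read that mark, adds ubiquitin to histone H2A. Together they keep developmental genes and cell cycle inhibitors silent, and Bmi1 in PRC1 is known as a self-renewal factor of blood stem cells. DNA methyltransferases place methyl groups on cytosine, deacetylases remove acetyl groups from histones and other proteins, and sirtuins do so with NAD as a cosubstrate. Loss of Dnmt3a is known to enlarge the stem cell pool in mouse marrow.

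Each gene was read from its brightest sequence, the probe set with the highest mean log2 intensity of those assigned to it. The detected range holds genes whose value exceeded the array median on at least 1 array (137 on both the knockout and the control array), which held for 16245 genes. Probes of random sequence gave 75.7 on the knockout array and 71.3 on the control array and served as the background level. Differences are log2 intensities of the knockout minus the control, and at least 2-fold (a difference of 1) was the size counted. Washc1, the targeted gene, had 107 in the knockout and 119 in the control, below the detected range on both arrays. The position of its probes relative to the deletion is not given, so these values check nothing about the genotype. Of 12 LT-HSC marker genes, 8 were in the detected range, 3 higher and 5 lower, with summed intensities of 3919 in the knockout and 4303 in the control. Mecom, at 163 in the knockout and 350.1 in the control (-1.10), was at least 2-fold lower, while Procr, Tek and Fgd5 were at or below the random-sequence level on both arrays. The 6 Mecom sequences, 3 of them in the detected range, ran from -1.65 to 0.49, with 4 lower and 1 higher.

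**Figure D1:**
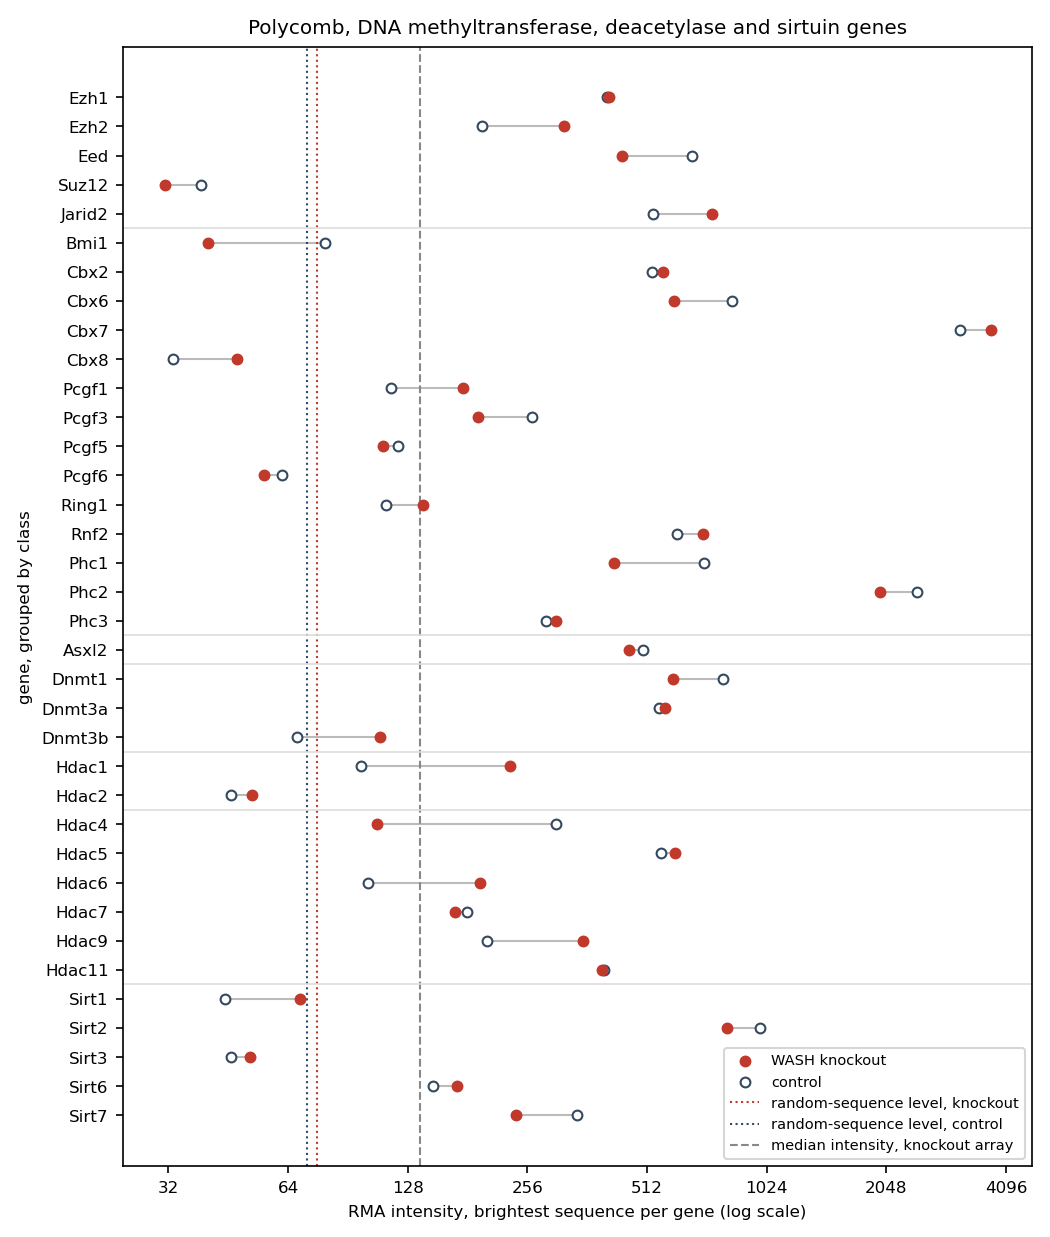
RMA intensity (log axis) of the brightest sequence of the 36 measured genes on the WASH knockout array (filled) and the control array (open), grouped by class, with the random-sequence level of each array (dotted) and the median intensity of the knockout array (dashed). Most pairs of points lie close together, Hdac1 and Hdac4 are the widest pairs among genes in the detected range, and 6 genes lie at or below the random-sequence level on both arrays.

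Most of these genes had similar intensities in the knockout and the control. Of the 36 measured, 27 were in the detected range, 15 of them higher and 12 lower in the knockout, with a median difference of 0.04 against 0.03 over all genes in that range. Hdac1 was at least 2-fold higher and Hdac4 at least 2-fold lower, and no other gene of the 27 reached that size. These 2 of 27 (7.41%) stand beside 13.7% of all genes in the detected range that differed at least 2-fold, made up of 6.41% of all genes higher and 7.29% lower in the knockout. The median size of the difference, ignoring its sign, was 0.31 for these genes and 0.43 for all genes. Just outside 2-fold lay Hdac6 (0.94), Hdac9 (0.79) and Phc1 (-0.76).

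Markers of some other blood cell types differed between the arrays. Of 15 erythroid marker genes 14 were measured, all 14 were higher, 11 of them at least 2-fold, and their summed intensity was 84700.1 in the knockout and 16348 in the control. The 15 granulocyte and monocyte markers summed to 56934 in the knockout and 141961 in the control, with 8 of the 12 in the detected range lower and 4 higher, 4 of them at least 2-fold lower and 1 at least 2-fold higher. The neutrophil granule genes S100a8, S100a9, Ngp, Ltf and Lcn2, all lower, made up 87.9% of that sum in the knockout and 94.4% in the control, while Csf1r (1.19), Itgam (0.77), Ly6c2 (0.62) and Fcgr3 (0.55) were higher. These genes, like the other markers named with values, were picked after their values were seen. For Csf1r, Itgam and Fcgr3 at least 1 other sequence was lower in the knockout, down to -0.26, -1.73 and -1.58. Of 5 megakaryocyte markers in the detected range, 2 were higher and 3 lower, with a median of -0.02 for the list. Pf4 (-1.19) and Ppbp (-1.40) were at least 2-fold lower (40%, beside 13.7% of all genes at 2-fold in either direction). Itga2b (0.49) and Gp9 (0.05) were higher, and Vwf was at -0.02. The B lymphoid markers had a median of 0.06 and 0 of 6 at 2-fold, the T and NK markers a median of 0.45 and 1 of 6, and the macrophage and dendritic markers a median of 0.24 and 1 of 5. The part of these shifts in the values below was not tested, and in such bulk RNA fewer cells of a type and less RNA per cell cannot be told apart. Of 10 proliferation genes 8 were in the detected range, 5 higher and 3 lower, with a median difference of 0.29. Mki67 (1.18) and Ccna2 (1.31) were at least 2-fold higher, whereas Cdk1 (-0.33), Top2a (-0.28) and Mcm5 (-0.02) were lower. Pcna (0.90), Ccnb1 (0.55) and Tyms (0.03) were also higher. The second sequences of Mcm5 and Ccnb1 differed by 0.75 and -0.05.

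To show where these genes start, the 250 bases before the transcription start are printed for the 2 lowest and the 2 highest genes in the detected range that have an entry in the RefSeq promoter table (build GRCm38.p6). They run 5′ to 3′ in lower case, and capitals mark CG dinucleotides, the sites that DNA methyltransferases act on. Hdac9 has 2 entries, for different transcripts, and Hdac1 is not among the entries.
Hdac4, chr1:92180342-92180591, minus strand: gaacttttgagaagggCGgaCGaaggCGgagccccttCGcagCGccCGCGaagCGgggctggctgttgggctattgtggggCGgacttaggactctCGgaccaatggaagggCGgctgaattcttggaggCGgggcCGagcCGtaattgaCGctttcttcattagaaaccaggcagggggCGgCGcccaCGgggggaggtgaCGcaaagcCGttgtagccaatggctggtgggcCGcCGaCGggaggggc
Phc1, chr6:122340228-122340477, minus strand: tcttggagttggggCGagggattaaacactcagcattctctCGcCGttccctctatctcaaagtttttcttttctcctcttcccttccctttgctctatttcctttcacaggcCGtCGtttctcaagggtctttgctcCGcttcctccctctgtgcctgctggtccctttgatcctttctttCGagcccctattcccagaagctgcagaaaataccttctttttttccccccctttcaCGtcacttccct
Hdac6, chrX:7947890-7948139, minus strand: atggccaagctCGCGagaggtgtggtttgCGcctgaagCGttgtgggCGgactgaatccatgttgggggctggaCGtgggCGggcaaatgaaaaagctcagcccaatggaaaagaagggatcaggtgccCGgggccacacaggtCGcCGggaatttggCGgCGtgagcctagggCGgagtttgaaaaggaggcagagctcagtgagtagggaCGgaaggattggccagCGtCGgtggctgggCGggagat
Hdac9, chr12:34528890-34529139, minus strand: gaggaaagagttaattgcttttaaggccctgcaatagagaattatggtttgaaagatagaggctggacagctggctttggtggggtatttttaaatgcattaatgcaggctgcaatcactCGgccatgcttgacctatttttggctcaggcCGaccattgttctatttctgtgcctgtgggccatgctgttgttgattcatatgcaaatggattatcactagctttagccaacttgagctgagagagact
Hdac9, chr12:34917096-34917345, minus strand: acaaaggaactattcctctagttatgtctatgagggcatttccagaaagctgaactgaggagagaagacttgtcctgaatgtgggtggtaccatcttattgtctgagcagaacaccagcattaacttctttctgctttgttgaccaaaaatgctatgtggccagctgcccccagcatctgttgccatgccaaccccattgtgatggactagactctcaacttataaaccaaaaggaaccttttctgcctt

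The Hdac4 stretch holds 23 CG dinucleotides and that of Hdac6 17, against 8 before Phc1 and 2 and 0 at the Hdac9 starts. The 48 entries of 33 genes had a median of 20 CG dinucleotides, against 6 for all 32851 entries. The E-box letters CACGTG, which Myc with Max can bind and which read the same on both strands, occurred in 7 of the 48 entries (14.6%) and in 6.02% of all entries. None of the 5 printed stretches holds them. These entries are also richer in G and C than the whole table (a median of 64.6% against 52.4%), and a match of letters is no evidence of binding.

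Among the PRC2 genes, 4 were in the detected range and none reached 2-fold, beside 13.7% of all genes in that range. The catalytic subunit gene Ezh2 had 316 in the knockout and 197 in the control, a difference of 0.69. Its other sequence went the opposite way, with 158 in the knockout and 218 in the control (-0.46), so the 2 readings of Ezh2 disagree. Ezh1, the second catalytic subunit, had 411 in the knockout and 405 in the control, a difference of 0.02. All 4 Ezh1 sequences were higher in the knockout, by 0.02 to 0.61, but only 2 of them were in the detected range. Eed, which binds the methyl mark and stimulates the enzyme, had 443 in the knockout and 663 in the control (-0.58) with its single sequence. Jarid2, an accessory protein that helps to place PRC2 on chromatin, had 748 in the knockout and 529 in the control (0.50). Its 5 sequences, all in the detected range, differed by -0.22 to 0.50. Suz12, the scaffold of the complex, lay below the random-sequence level on both arrays (31.3 in the knockout, 38.7 in the control), so a change in it could not be seen.

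The 14 PRC1 genes had 10 members in the detected range, 6 higher and 4 lower, with a median difference of 0.08. None of the 10 reached 2-fold, beside 13.7% of all genes in that range, of which 8402 of 16245 were higher. The 2 ubiquitin ligase genes were both a little higher, by less than the median size of difference over all genes (0.43). Rnf2 had 706 in the knockout and 610.4 in the control (0.21), and Ring1 had 140.0 in the knockout and 113 in the control (0.31). Ring1 was read from a single sequence, at only 1.85 times the random-sequence level in the knockout and 1.58 times in the control. Bmi1, the Polycomb ring finger protein tied to stem cell self-renewal, was not in the detected range. It had 40.3 in the knockout, below the random-sequence level, and 79.4 in the control, only 1.11 times that level, and its 3 sequences ran from -0.98 to 0.46. No statement on Bmi1 can rest on such values.

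The other ring finger genes, which define variant forms of PRC1, showed no common direction. Pcgf1 had 176 in the knockout and 116 in the control (0.60), while its dimmer sequence differed by -0.56. Pcgf3 had 193 in the knockout and 264 in the control (-0.45), and its dimmer sequence differed by 0.83. Pcgf5 (-0.13) and Pcgf6 (-0.14) were below the detected range, Pcgf6 at or below the random-sequence level on both arrays.

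Chromobox proteins read the PRC2 mark. Cbx7, the chromobox gene linked to self-renewal of mouse blood stem cells, had 3749 in the knockout and 3139 in the control (0.26), at 49.6 and 44.0 times the random-sequence level. Its other sequence was below that level on both arrays. Cbx2 had 561 in the knockout and 528 in the control (0.09). Cbx6 had 599 in the knockout and 838 in the control (-0.49). Cbx8, at 47.5 in the knockout and 32.9 in the control, was below the random-sequence level on both arrays.

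Polyhomeotic proteins link PRC1 complexes to each other. Phc1, required for fetal blood stem cells in mice, had 422 in the knockout and 713 in the control (-0.76). Another Phc1 sequence had 137 in the knockout and 53.9 in the control (1.34), and the remaining pair differed by -0.11 and -0.03. The lower value of Phc1 thus rests on 1 of 4 sequences, the only sequence in the detected range. Phc2 had 1974 in the knockout and 2440 in the control (-0.31), whereas its other 3 sequences were higher, by 0.23 to 0.80. Phc3 had 302 in the knockout and 286 in the control (0.08). Asxl2, a partner of the deubiquitinase that removes the PRC1 mark, had 462 in the knockout and 502 in the control (-0.12). All 3 Asxl2 sequences were in the detected range and lower in the knockout, by -0.76 to -0.12.

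Of 3 DNA methyltransferase genes 2 were in the detected range and none of these reached 2-fold, beside 13.7% of all genes in that range. Dnmt1, which copies methylation after replication, had 596 in the knockout and 795 in the control (-0.42). Its other 2 sequences in the detected range differed by 0.12 and -0.03. Dnmt3a, which sets new methylation and limits stem cell expansion, had 567 in the knockout and 550.0 in the control (0.04), and another sequence of it had 399.6 in the knockout and 479 in the control (-0.26). Dnmt3b was below the detected range, with 109 in the knockout and 67.4 in the control. The control value was at or below the random-sequence level, and the fold against that level was 1.53. The knockout value was only 1.44 times the random-sequence level of its own array. The second Dnmt3b sequence, also below the detected range, differed by 0.82. No statement on Dnmt3b can rest on such values.

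The deacetylase genes held both differences of 2-fold or more. Hdac1, a class I enzyme of the Sin3, NuRD and CoREST complexes, had 231 in the knockout and 97.9 in the control, 2.36-fold higher (1.24). In MM9 its sequence spans chromosome 4, 129193352 to 129219885. The control value was 1.37 times the random-sequence level, so this difference rests on a reading near background. Hdac1 had a single sequence, with no second reading to set beside it, and the array lists a pseudogene, Hdac1-ps, among its names, whose transcripts these probes may not separate. Of all genes in the detected range, 3.35% were higher by at least as much. Hdac2, the close relative of Hdac1, was below the random-sequence level on both arrays, with 51.8 in the knockout and 46.0 in the control.

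Hdac4, a class IIa deacetylase that holds MEF2 factors in check, had 107 in the knockout and 302 in the control, 2.82-fold lower in the knockout (-1.50). Its sequence spans chromosome 1, 93829331 to 94044970 (MM9). A second sequence had 91.3 in the knockout and 295 in the control (-1.69). The third, below the detected range, had 82.8 in the knockout and 113 in the control (-0.45). All 3 Hdac4 readings were lower in the knockout, where they lay close to the random-sequence level of 75.7. Of all genes in the detected range, 2.18% were lower by at least as much. The sequences overlap in the genome and come from the same pair of RNA samples, so they are not replicates.

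The other class IIa genes did not follow Hdac4. Hdac9 had 352 in the knockout and 203 in the control (0.79), from the 1 sequence of 7 in the detected range. A second sequence over the same span, below that range and with a control value near the random-sequence level, had 130 in the knockout and 71.8 in the control (0.85). The other 5, also below the range, ran from -1.59 to 1.52. Hdac5 had 603 in the knockout and 554 in the control (0.12), and a second sequence in the detected range differed by -0.26. Hdac7 had 168 in the knockout and 181 in the control (-0.10), with its other sequences at 0.67 and -0.89.

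Hdac6, a class IIb enzyme known for deacetylating tubulin in the cytoplasm, had 195 in the knockout and 102 in the control (0.94). The control value was 1.43 times the random-sequence level, and its other sequence, below that level on both arrays, had 36.4 in the knockout and 67.3 in the control (-0.89). Hdac11, the class IV enzyme, had 395 in the knockout and 400.2 in the control (-0.02).

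Of 5 sirtuins 3 were in the detected range and none of these reached 2-fold, beside 13.7% of all genes in that range. Sirt2, which is mainly cytoplasmic, had 812 in the knockout and 988 in the control (-0.28), and both of its sequences were lower, by -0.28 and -0.13. Sirt6, a chromatin-bound enzyme, had 170.2 in the knockout and 148 in the control (0.20), and its other sequence differed by -0.02. Sirt7, the nucleolar sirtuin, had 239.7 in the knockout and 342 in the control (-0.51) with its single sequence. Sirt1, the nuclear sirtuin, and Sirt3, the mitochondrial sirtuin, were below the random-sequence level on both arrays, so no change in them could be read.

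**Figure D2:**
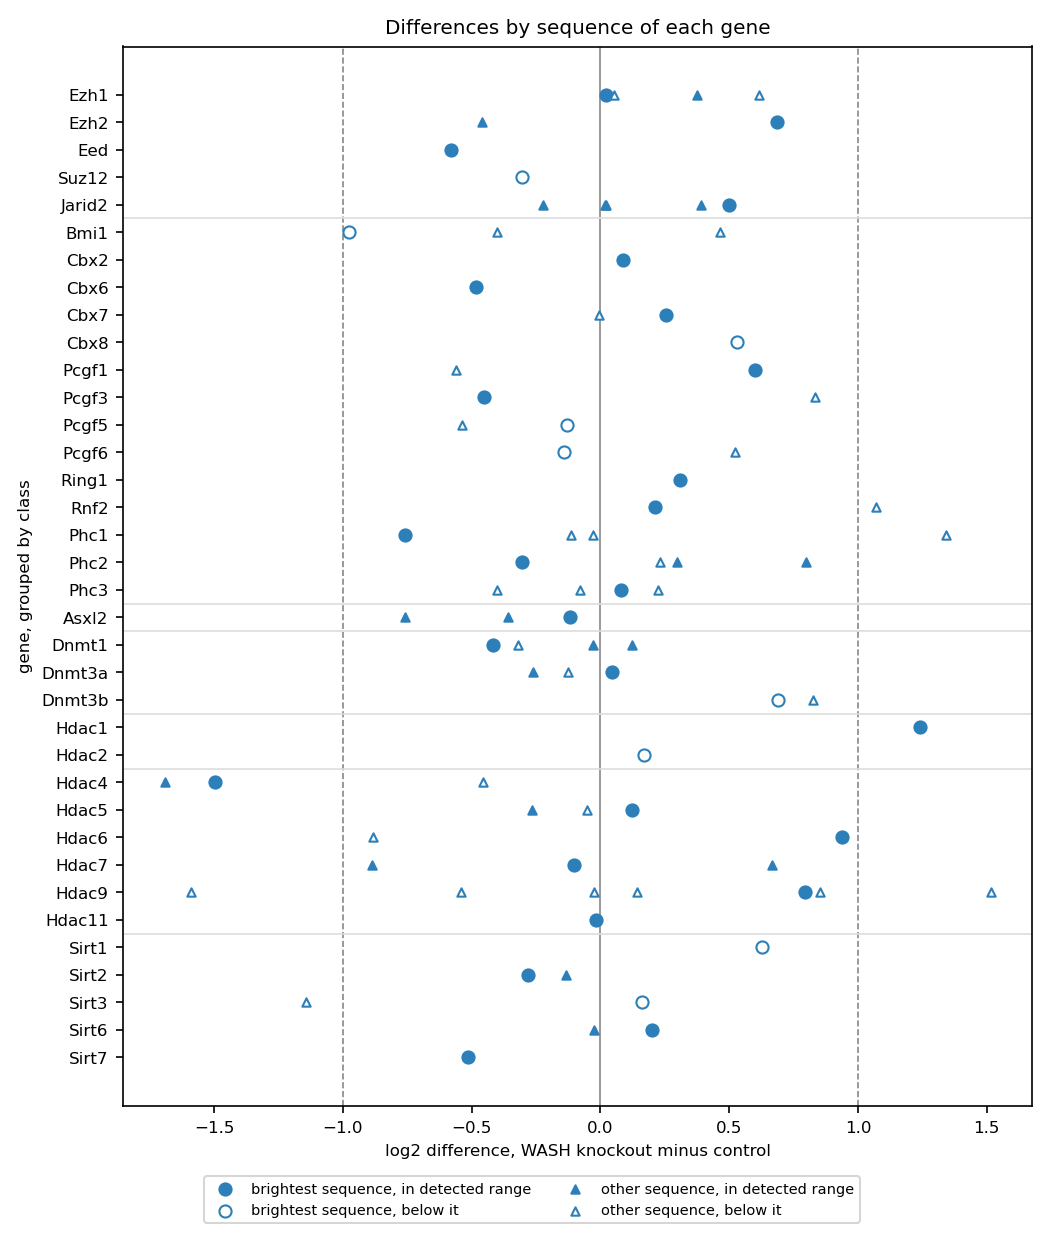
Log2 difference (WASH knockout minus control) of every sequence of the 36 genes, with circles for the brightest sequence of a gene, triangles for its other sequences, filled symbols in the detected range and dashed lines at 2-fold. Sequences of 1 gene often fall on both sides of 0, whereas all 3 of Hdac4 lie left of it, between -1.69 and -0.45.

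The 36 genes had 85 sequences, 46 of them in the detected range. Of these 46, 1 was at least 2-fold higher (Hdac1) and 2 were at least 2-fold lower (both of Hdac4), together 6.52%, beside 15% of all sequences in the detected range that carry a gene symbol. Among the 20 genes in the detected range with several sequences, 5 had every sequence on the same side: Ezh1 and Rnf2 higher, and Asxl2, Hdac4 and Sirt2 lower. That is 25.0%, beside 38.1% of all such genes. Sequences below the detected range count here too, and the share depends on how many sequences a gene has. This number was not matched, so the 2 shares are not strictly alike. The spread between sequences of 1 gene in the detected range was 0.42 (log2 SD, 12 genes) here and 0.66 over 4969 genes. The other 15 genes had sequences on both sides of 0, among them Ezh2, Pcgf1, Pcgf3, Phc1, Phc2, Hdac6, Hdac7 and Hdac9.

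**Figure D3:**
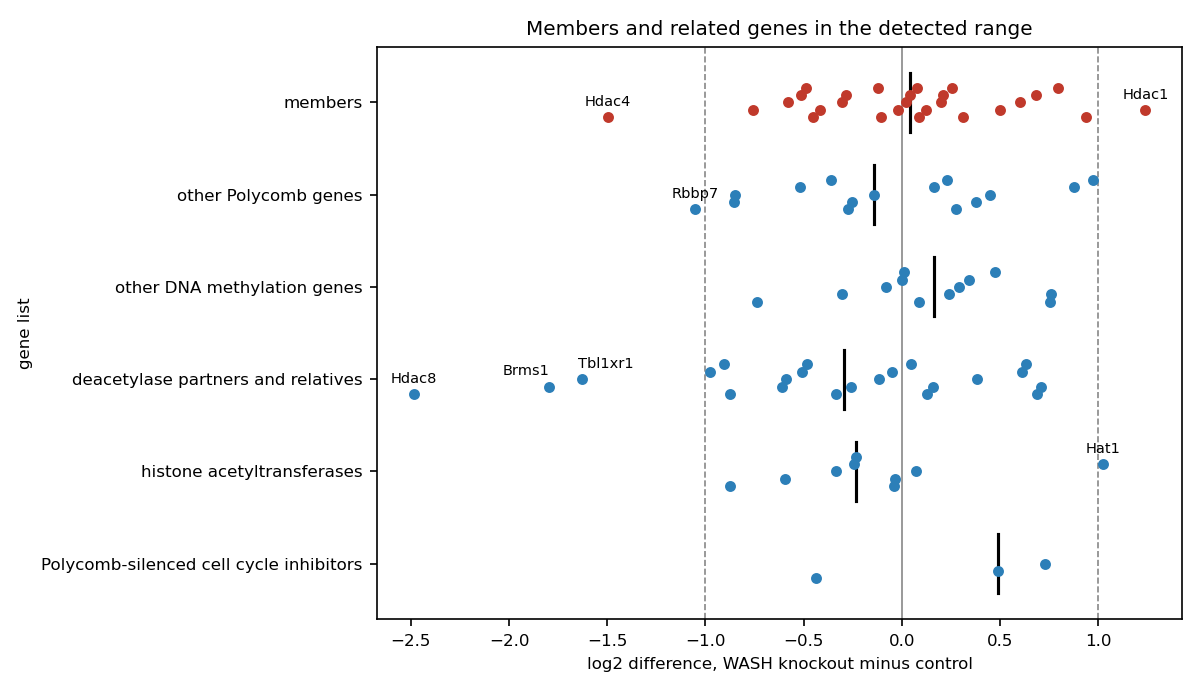
Log2 difference (WASH knockout minus control) of the 27 genes described here (top row) and of 5 lists of related genes, all in the detected range. Points are genes, black bars are medians, dashed lines mark 2-fold, and genes at 2-fold or more are named, with Hdac8, Brms1 and Tbl1xr1 farthest to the left.

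Related genes of the same pathways were read in the same way. Of 76 such genes 73 were measured and 61 were in the detected range, 27 higher and 34 lower, with a median of -0.05. At least 2-fold differences were seen for 5 (8.20%), 1 higher and 4 lower in the knockout, beside 13.7% of all genes.

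The 26 deacetylase partners and relatives were all measured, and 22 were in the detected range, 14 of them lower, with a median of -0.30 and 3 at least 2-fold lower. These 3 of 22 (13.6%) stand beside 13.7% of all genes at 2-fold, and 7839 of all 16245 genes in the detected range were lower. Hdac8, another class I enzyme, was at 68.4 in the knockout, below the random-sequence level, and at 383 in the control. It was thus at least 5.06-fold lower in the knockout with this sequence, whereas its other sequence differed by 0.06. Tbl1xr1, a corepressor complex subunit, had 162 in the knockout and 502 in the control (-1.63), and all 3 of its sequences were lower, by -1.63 to -0.71. Only 1 of the 3 Tbl1xr1 sequences was in the detected range. Brms1, a Sin3 complex subunit, had 464 in the knockout and 1607 in the control (-1.79), but its other sequence differed by 0.81.

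Ncor1, a corepressor gene whose product recruits deacetylases, was singled out after its values were seen. It had 1140 in the knockout and 2244 in the control (-0.98), and 8 of its 9 sequences were lower, the range being -1.64 to 0.37. Of the 9, 7 were in the detected range.

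Of 22 other Polycomb genes 15 were in the detected range, with a median of -0.14. By measured values 1 was at 2-fold (6.67%, beside 13.7% of all genes). Rbbp7, a histone chaperone shared by PRC2, Sin3 and NuRD, was at 67.9 in the knockout, below the random-sequence level, and at 141 in the control. The measured difference was -1.05, but against the random-sequence level it was only at least 1.86-fold lower in the knockout, so 2-fold is not shown. Its second sequence, below the detected range, differed by -0.66. The opposing histone demethylase genes Kdm6a and Kdm6b, chosen after their values were seen, differed in direction: Kdm6a had 495 in the knockout and 362 in the control (0.45) with all 5 sequences higher, and Kdm6b had 741 in the knockout and 1338 in the control (-0.85) with all 3 sequences lower. In the detected range were 3 of the Kdm6a sequences and 2 of the Kdm6b sequences.

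The 12 other DNA methylation genes in the detected range, 8 of them higher, had a median of 0.16 and no 2-fold difference. Of 9 histone acetyltransferase genes in that range 7 were lower, with a median of -0.23, while Hat1, which acetylates newly made histones, had 449 in the knockout and 220.2 in the control (1.03). The other Hat1 sequence differed by -0.13. Hat1 was the only one of these 9 at 2-fold (11.1%, beside 13.7% of all genes). Over all 16245 genes in the detected range, 8402 were higher and 7839 lower. Among 4 cell cycle inhibitor genes known as Polycomb targets, Cdkn2a was at or below the random-sequence level on both arrays. Cdkn2b had 215 in the knockout and 130 in the control (0.73), from a single sequence. Cdkn1a had 182 in the knockout and 130 in the control (0.49), with all 3 of its sequences higher. The control values of Cdkn2b and Cdkn1a were only 1.82 times the random-sequence level. Only 1 of the 3 Cdkn1a sequences was in the detected range. Cdkn1c had 374 in the knockout and 507 in the control (-0.44), but its other 2 sequences, both in the detected range, were higher in the knockout, by up to 1.29.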

How the data were processed

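The authors deposited 1 intensity per sequence and array on a linear scale, made with RMA per the submitters' processing notes. RMA removes background, gives all arrays a common distribution and combines probes, so a shift of most genes would not be visible. The sources used here name no version of it. According to the deposited columns, 44155 of 44170 sequences were summarised from 3 probes, and coordinates are on MM9. The number of arrays limits the precision.

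Intensities were turned into log2 values (Python 3.11.15, pandas 2.3.3), with no further scaling. Symbols were updated through the gene identifier in the RefSeq table (21583 identifiers matched). No test was possible with 1 array per group, so sizes of at least 2-fold were counted. For a value at or below the random-sequence level on 1 array, the fold is a bound against that level, while counts kept the measured values. All members were named, with related genes at 2-fold or more, up to 6 per list. Members and lists were chosen with earlier results of these data known. The counting was tested on simulated data. Alternatives were the series table, scaling, loess, an offset, the sequence per gene, filters and sizes.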

Additional observations from a re-analysis of the deposited data

How the results depend on the processing

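No paired analysis was possible because knockout and control are a single array each. Hdac1 was no longer counted as 2-fold higher with an offset of 50 (0 genes, Hdac1 at 0.93), the 75th percentile filter (0) or a 3-fold size (0), and 5 genes were counted at 1.5-fold. Hdac4 was not counted as 2-fold lower with the dimmest sequence (0 genes, Hdac4 at -0.45), the 75th percentile filter (0) or a 3-fold size (0), and 2 genes were counted at 1.5-fold. The median of the members was -0.13 with the dimmest sequence, which leaves 13 genes. The medians of PRC2 (3 genes) and of class II and IV deacetylases (2 genes) were then -0.46 and -0.45. That of the sirtuins was 0.16 with no filter (5 genes), which is the value of Sirt3, below the random-sequence level on both arrays. Related genes at least 2-fold higher were 2 with quantile normalization, the dimmest sequence or no filter, 0 with the offset, the mean of sequences or 3-fold, and 10 at 1.5-fold, and those lower were 0 with the dimmest sequence and 14 at 1.5-fold. All genes gave 1042 higher and 1185 lower. The offset left 573 higher and 735 lower, the 75th percentile filter 538 higher and 676 lower, and 3-fold 242 higher and 280 lower. A size of 1.5-fold gave 3004 higher and 2972 lower, and the mean of sequences 677 higher. Larger sizes and stricter filters count fewer genes by construction, and for the other changes the cause was not tested. Of 246 values of single members under 7 alternatives, 15 moved by more than the spread between sequences over all genes (0.66). All 15 of them came with the mean or the dimmest sequence. Against the smaller spread of these genes (0.42) more values would count as moved. Examples are Ezh2 with the mean (0.69 to 0.11) and Bmi1 with the offset (-0.98 to -0.52). Opposite signs, at any size, were found for 22 of the 246. For members with 1 sequence the mean and the dimmest sequence repeat the main value, and the series table repeats the same intensities. Agreement there was fixed in advance. A filter at 2 times the random-sequence level, added after seeing the data, left the median of the members at 0.03. For dim genes the closeness to background limits what can be read.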
